A study of Mus musculus with 6 samples.

Results

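The genes described here are 7 ligands of the epidermal growth factor receptor (Areg, Ereg, Hbegf, Btc, Tgfa, Egf and Epgn) and 3 receptors of the ERBB family (Egfr, Erbb2 and Erbb3), that is, 10 of the 23557 genes measured in CT26 tumors. They were picked because Areg and Ereg lay lower in tumors of mice given the kinase inhibitor H89, so their difference between H89 and control tumors is given as a description, without a test. CT26 is a mouse colorectal carcinoma line, and 500000 cells had been injected under the skin of BALB/c mice, which the study's methods describe as females aged 7 weeks. NaCl mice (3 tumors) received saline in the abdominal cavity, and H89 mice (3 tumors) received H89 at 10 mg/kg by the same route, 2 times a week. Every tumor was removed on day 14, frozen whole and sequenced in bulk, so host stroma, vessels and leukocytes were measured together with the cancer cells. Apart from treatment, no genotype or agent set the groups apart in the labels.

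The deposited values were estimated read counts per gene, with totals of 27067349 to 29067921 per NaCl tumor and 28548727 to 31958793 per H89 tumor. Levels are given as normalized CPM, that is, counts per 1000000 counts after the trimmed mean of M values (TMM) scaling, which corrects each library total for the make-up of its RNA. At these depths 1 count was worth between 0.0304 and 0.0373 CPM. The tumors were separate samples in the labels, and a batch was not given there, so p-values measure only the spread between these 6 tumors. The 14 simple epithelial markers were detected unevenly: Krt20, a keratin of gut epithelium, stood at 65.7 to 103 CPM and Krt18 at 7.75 to 23.5 CPM, while 6 of the 14 were under 1 CPM in every tumor. Epcam reached at most 1.18 CPM and Cdx2 at most 0.304 CPM.

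The ligands of this family are made as membrane-anchored precursors that are cut free by metalloproteases and then bind a receptor on the same or a neighbouring cell. Egfr binds all 7 of them, and Hbegf, Btc and Ereg also bind the related receptor Erbb4. Erbb2 has no known ligand of its own and acts as the preferred partner of the other receptors, and Erbb3, whose kinase is nearly inactive, binds neuregulins and signals mainly when paired with Erbb2. Ligand binding activates the RAS to ERK and the PI3K to AKT cascades, and several ligand genes, Areg, Ereg and Hbegf among them, are themselves induced by ERK activity. H89 is used as an inhibitor of protein kinase A, although it inhibits other kinases too. Protein kinase A phosphorylates the factor CREB, which binds the cyclic AMP response element (CRE).

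Areg, Ereg, Epgn and Btc are neighbours on chromosome 5, so the promoters of the family were read for the CRE. RefSeq sequence on GRCm38.p6 was at hand for 7 of the 10 genes, in 8 windows from 250 bases before to 50 bases after the transcription start, and those of Ereg, Hbegf and Erbb3 were not analysed here. The 250 bases upstream are shown for Areg, which held the one full CRE in the family, for its neighbour Btc, which held a CRE half-site only, and for Tgfa and Egfr, which held neither. Each is written 5′ to 3′ on the strand of its gene, with the CRE (TGACGTCA) and the half-sites (TGACG or CGTCA) in capitals.
Areg, chr5:91139349-91139598, plus strand: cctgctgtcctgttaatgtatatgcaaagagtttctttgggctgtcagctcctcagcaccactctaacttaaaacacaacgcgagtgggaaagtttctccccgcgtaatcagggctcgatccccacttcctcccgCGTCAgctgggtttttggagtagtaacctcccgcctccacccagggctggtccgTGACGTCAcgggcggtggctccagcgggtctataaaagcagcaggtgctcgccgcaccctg
Btc, chr5:91402995-91403244, minus strand: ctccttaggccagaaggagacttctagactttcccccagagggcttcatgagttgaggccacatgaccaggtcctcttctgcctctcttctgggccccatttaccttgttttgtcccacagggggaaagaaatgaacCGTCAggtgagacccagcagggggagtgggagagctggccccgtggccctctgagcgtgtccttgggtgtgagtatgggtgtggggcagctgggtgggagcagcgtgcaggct
Tgfa, chr6:86194972-86195221, plus strand: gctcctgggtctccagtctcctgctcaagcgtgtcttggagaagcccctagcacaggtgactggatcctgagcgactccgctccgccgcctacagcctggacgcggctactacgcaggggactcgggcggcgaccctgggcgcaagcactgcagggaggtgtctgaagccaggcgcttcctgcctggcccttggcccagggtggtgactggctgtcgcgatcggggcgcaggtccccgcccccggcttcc
Egfr, chr11:16751953-16752202, plus strand: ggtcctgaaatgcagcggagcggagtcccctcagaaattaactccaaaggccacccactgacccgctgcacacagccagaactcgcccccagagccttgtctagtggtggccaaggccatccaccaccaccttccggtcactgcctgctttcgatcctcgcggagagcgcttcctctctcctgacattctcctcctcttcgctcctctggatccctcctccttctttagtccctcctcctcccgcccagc
The CRE of Areg lay 61 to 54 bases upstream of the start, and a further half-site lay 115 to 111 bases upstream. The half-site of Btc lay 113 to 109 bases upstream. Half-sites overlap the full CRE by construction, and both strands were searched. Of the 7 genes, 1 held a CRE, 4 held a half-site (Areg, Epgn, Btc and Erbb2), and none held the AP-1 site TGACTCA or its reverse TGAGTCA. Over all 32851 promoter windows of the same length, 1.79% held a CRE, 20.8% held a half-site and 5.2% held the AP-1 site. These are matches of letters in a window, and no binding was measured.

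Areg, which encodes amphiregulin, a ligand of low affinity made by epithelia and by leukocytes of type 2 responses, had the largest log2 difference of the 6 ligands that were fitted. Its level was 9.24, 11.2 and 16.0 CPM in NaCl tumors 1, 2 and 3, and 5.06, 3.83 and 6.87 CPM in H89 tumors 1, 2 and 3. Every H89 tumor lay below every NaCl tumor, by normalized CPM and by CPM of the plain library totals. The means were 12.1 ± 3.46 CPM in NaCl tumors and 5.25 ± 1.53 CPM in H89 tumors (SD, n = 3 each), 56.7% lower with H89. The log2 fold change fitted by edgeR, a count model run over all genes, was -1.21 with a standard error of 0.27. These values rest on 257 to 437 counts per NaCl tumor and 126 to 226 counts per H89 tumor. In whole tumors, fewer cells of a type and less RNA per cell cannot be told apart. The gene (ENSMUSG00000029378) occupies bases 91139599 to 91148432 of chromosome 5, plus strand, in GENCODE release 21 on GRCm38.

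Ereg, which encodes epiregulin, a ligand with broad receptor use, was much more abundant than Areg, also per length. The NaCl tumors held 151, 173 and 238 CPM, and the H89 tumors held 72.7, 89.4 and 146 CPM. The groups lay apart by a narrow margin, since H89 tumor 3 (145.96 CPM) was just under NaCl tumor 1 (150.64 CPM). By plain library totals this order turned, with 155 CPM in H89 tumor 3 and 144 CPM in NaCl tumor 1, so the wording by which the family was picked held for Ereg after TMM scaling only. The means were 187 ± 45.4 and 103 ± 38.4 CPM (SD, n = 3 each), with a log2 fold change of -0.87 (SE 0.27). Without H89 tumor 3 the log2 fold change was -1.21, and without NaCl tumor 3 it was -0.66. Ereg lies at 91074622 to 91093646 of chromosome 5, and its exons overlap those of Gm19610 on the opposite strand.

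Hbegf, which encodes heparin-binding EGF-like growth factor, the precursor that also serves as the diphtheria toxin receptor, was the most abundant of the 7 per length. Its level was 205, 255 and 304 CPM in the NaCl tumors and 118, 145 and 198 CPM in the H89 tumors. Again tumor 3 was the highest of each group and H89 tumor 3 came close to NaCl tumor 1. By plain library totals those tumors overlapped, with 210 CPM in H89 tumor 3 and 196 CPM in NaCl tumor 1. The means were 254 ± 49.4 and 154 ± 40.5 CPM (SD, n = 3 each), with a log2 fold change of -0.73 (SE 0.21). The gene lies on the minus strand of chromosome 18, outside the cluster on chromosome 5, at 36504927 to 36515805.

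Btc, which encodes betacellulin, a ligand first isolated from pancreatic beta-cell tumors, was spread more widely. The NaCl tumors held 44.1, 34.4 and 56.0 CPM, and the H89 tumors held 13.4, 28.2 and 38.8 CPM. H89 tumor 1 was by far the lowest of the 6, and H89 tumor 3 lay above NaCl tumor 2, so the groups overlapped. The means were 44.8 ± 10.8 and 26.8 ± 12.7 CPM (SD, n = 3 each). The log2 fold change of -0.74 (SE 0.35) became -0.42 when H89 tumor 1 was left out. The estimated counts of Btc were not whole, by up to 0.331 of a count.

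Tgfa, which encodes transforming growth factor alpha, long known as an autocrine ligand of carcinoma cells, held 10.0, 13.5 and 11.8 CPM in the NaCl tumors and 7.38, 9.15 and 12.5 CPM in the H89 tumors. The groups overlapped, with H89 tumor 3 above 2 of the NaCl tumors. Its log2 fold change was -0.28 (SE 0.21), and it ranged from -0.51 to -0.12 as each tumor was left out in turn. The exons of Tgfa (chromosome 6, 86195223 to 86275719) overlap those of Gm43917 on the opposite strand.

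Egf, the founding ligand of the family, was near the lower limit of measurement and differed the other way. Its counts were 15, 23 and 17 in the NaCl tumors and 36, 52 and 32 in the H89 tumors, or 0.54, 0.86 and 0.62 CPM against 1.28, 1.58 and 0.97 CPM. Every H89 tumor lay above every NaCl tumor. The log2 fold change was 0.92 (SE 0.31), but 0.38 after quantile normalization and 0.44 as a difference of log2(CPM + 1), which draws low genes toward no difference. The exons of Egf (chromosome 3, 129677565 to 129755316) overlap those of 6330410L21Rik and Gm42697 on the opposite strand. Epgn, which encodes epigen, a ligand of low affinity, was at the floor: its counts were 2, 0 and 6 in the NaCl tumors and 6, 5 and 7 in the H89 tumors. The 0 counts of NaCl tumor 2 allow a level of up to 0.112 CPM (3 counts, counting error only), and Epgn was left out of the fit because its mean was under 0.5 CPM.

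**Figure D1:**
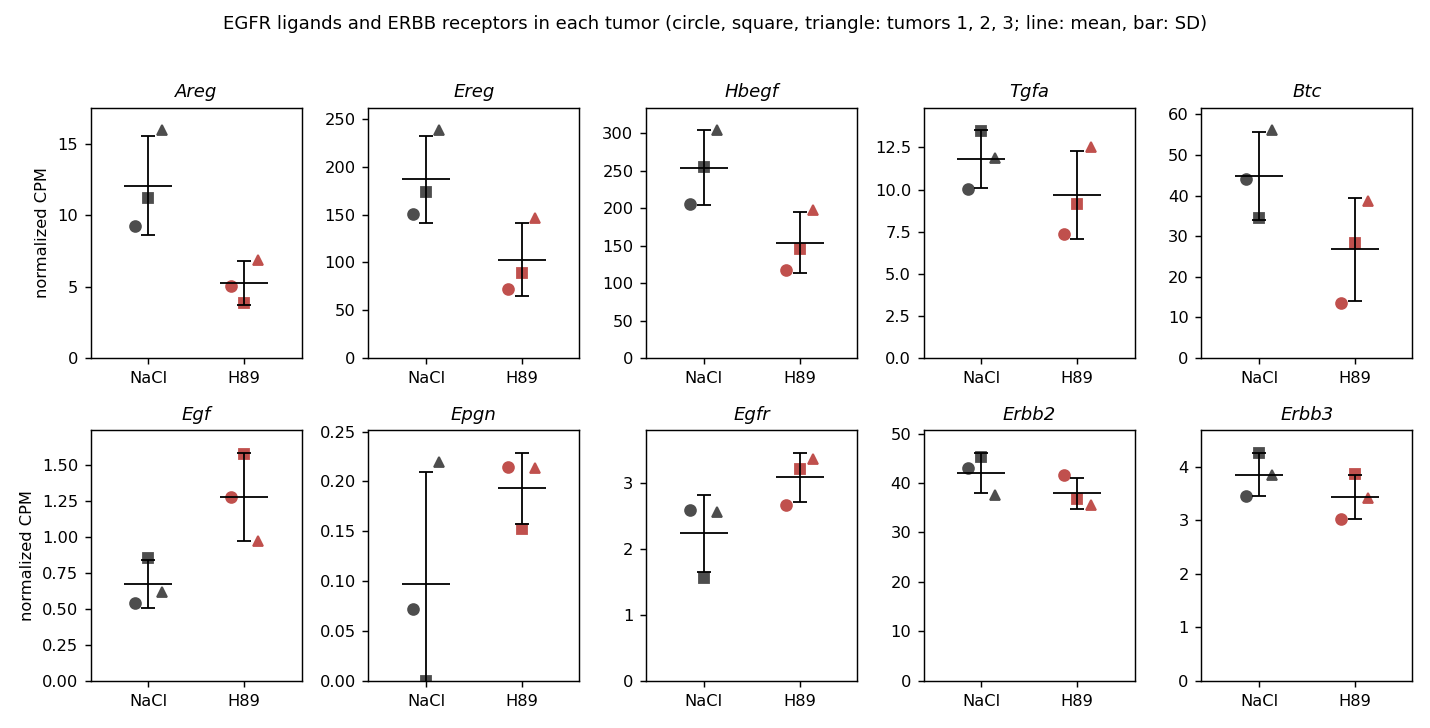
Each panel shows 1 gene, with the level in normalized CPM on a linear axis from 0, a point per tumor (circle, square and triangle for tumors 1, 2 and 3), a line at the group mean and a bar of 1 SD (n = 3). Areg, Ereg and Hbegf lay lower in all 3 H89 tumors, Egf lay higher in all 3, and tumor 3 was the highest of both groups for Areg, Ereg, Hbegf and Btc.

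Of the receptors, Egfr itself was scarce in these tumors, with 2.59, 1.57 and 2.56 CPM in the NaCl tumors and 2.67, 3.22 and 3.37 CPM in the H89 tumors. All 3 H89 tumors lay above the NaCl tumors, but H89 tumor 1 exceeded NaCl tumor 1 by a margin smaller than the SD of either group (0.582 and 0.369 CPM). Its log2 fold change was 0.47 (SE 0.25), and 0.2 after quantile normalization. Egfr (chromosome 11, 16752203 to 16918158) is one of the genes whose estimated counts were not whole, by up to 0.287 of a count.

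Erbb2, the partner receptor, held 43.1, 45.3 and 37.5 CPM in the NaCl tumors and 41.5, 36.8 and 35.5 CPM in the H89 tumors. The groups overlapped, and the log2 fold change was -0.15 (SE 0.11). Its exons (chromosome 11, 98412470 to 98437716) overlap those of Mien1 on the opposite strand. Erbb3 held 3.45, 4.25 and 3.84 CPM in the NaCl tumors and 3.03, 3.86 and 3.41 CPM in the H89 tumors, also overlapping, with a log2 fold change of -0.16 (SE 0.19). Erbb3 lies at 128567523 to 128589652 of chromosome 10.

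Among the 9 family members that passed the filter of a mean of 0.5 CPM, 3 lay lower in every H89 tumor (Areg, Ereg and Hbegf) and 2 lay higher in every H89 tumor (Egf and Egfr). Over the 13118 genes that passed it, 15.5% lay lower in every H89 tumor and 15.2% lay higher. Because the family was picked from the same comparison, nothing is read from these counts.

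Divided by the length of the longest coding transcript, the levels ranked Hbegf first among the ligands of NaCl tumors, with a mean of 107 CPM per kb, ahead of Ereg with 45.4, Btc with 15.6, Areg with 10.0 and Tgfa with 2.6. Egf, with 0.141 CPM per kb, and Epgn, with 0.0552, followed far behind. In the H89 tumors the order was kept: Hbegf had 64.7 CPM per kb, Ereg 24.9, Btc 9.32, Areg 4.32, Tgfa 2.14, Egf 0.269 and Epgn 0.11. As a share of the 7 ligands per length, Hbegf made up 57.8 to 61.8% in NaCl tumors and 59.1 to 63.5% in H89 tumors. Ereg made up 24.2 to 26.1% and 22.0 to 25.1%, so the leading pair kept overlapping shares while their levels differed. The share of Areg was 5.14 to 5.95% in NaCl tumors and 3.21 to 5.34% in H89 tumors, which overlapped as well. The share of Tgfa did not overlap, with 1.18 to 1.71% in NaCl tumors and 1.97 to 2.09% in H89 tumors. Nor did those of Egf (0.059 to 0.104% and 0.145 to 0.345%) and Epgn (0 to 0.0564% and 0.0859 to 0.156%), which rest on few counts.

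Of the 3 receptors per length, Erbb2 made up 89.4 to 91.3% in NaCl tumors and 88.5 to 91.5% in H89 tumors. Its mean was 8.38 CPM per kb in NaCl tumors, against 0.639 for Erbb3 and 0.219 for Egfr, and 7.57 in H89 tumors, against 0.57 for Erbb3 and 0.303 for Egfr. The receptor to which all 7 ligands bind was thus the least abundant of the 3 per length in both groups.

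Summed over the 7 ligands, the level was 419, 488 and 626 CPM in the NaCl tumors and 218, 278 and 403 CPM in the H89 tumors. H89 tumor 3 lay just under NaCl tumor 1. The mean sum was 511 ± 105 CPM in NaCl tumors and 299 ± 94.4 CPM in H89 tumors (SD, n = 3 in both groups), which gave a log2 ratio of -0.77. By plain library totals the log2 ratio was -0.69 and the groups overlapped, with 428 CPM in H89 tumor 3 and 401 CPM in NaCl tumor 1. The 3 receptors summed to 49.1, 51.2 and 43.9 CPM in the NaCl tumors and 47.2, 43.9 and 42.3 CPM in the H89 tumors, which overlapped, with a log2 ratio of -0.11.

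Some of the ligands, but not all, varied together between tumors of the same treatment. The correlation of Ereg with Hbegf over the 6 tumors was 0.99 on log2(CPM + 0.5), and it was 0.98 once each tumor was expressed as a deviation from its group mean. That of Areg with Ereg was 0.93 and then 0.81, and that of Areg with Hbegf was 0.92 and then 0.76. Btc followed Ereg (0.9 and then 0.84), and Tgfa followed Hbegf (0.86 and then 0.88). Areg was less close to Btc (0.71 and then 0.39) and to Tgfa (0.67 and then 0.53). Egf ran against the other 5 fitted ligands, from Areg (-0.87 and then -0.5) to Tgfa (-0.51 and then -0.15), and Egfr ran against Erbb2 (-0.84 and then -0.75). These are descriptions over 6 tumors in 2 groups, in which all genes of a tumor share its scaling. Hbegf and Tgfa lie on other chromosomes than the cluster.

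The genes whose pattern over the 6 tumors was most like that of Areg, among 10461 genes with a mean of at least 5 CPM, were Wdr45b (r = 0.991), Avil (0.987), Ddit3 (0.987), Gch1 (0.985) and Chchd3 (0.982). Avil, which encodes the actin-binding protein advillin, had a mean of 15.0 CPM in NaCl tumors and 2.61 CPM in H89 tumors. Ddit3, a transcription factor of the endoplasmic reticulum stress response, had 73.3 and 37.7 CPM. The likeness did not require a difference of similar size, since Wdr45b had 60.0 and 52.2 CPM. For Ereg they were Rbm18 (0.998), Hbegf (0.992), which is another ligand of the family, Fam171b (0.99), Dnajb9 (0.986) and Blmh (0.986). The difference between H89 and NaCl tumors, from which Areg and Ereg were picked, enters these correlations, so nothing about the family is read from them. These values rest on 6 tumors, and other genes came close: of the 10461 genes, 63 reached an r over 0.95 with Areg and 69 with Ereg.

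On chromosome 5 the cluster runs from Epgn through Ereg and Areg to Btc over 375.5 kb, and 13 coding genes lie in it or within 300 kb on either side. Relative to the left end of Areg, that of Ereg lies at -65.0 kb, that of Epgn at -112.1 kb and that of Btc at 217.7 kb. The 3 expressed ligands of the cluster were all lower on average in H89 tumors (Areg -1.21, Ereg -0.87 and Btc -0.74 on the log2 scale). The direction of Areg and Ereg was set by the rule that picked the family, and the groups overlapped for Btc, so no pattern of the cluster is read from these values. Mthfd2l, an enzyme of mitochondrial folate metabolism and the nearest coding gene to the left, did not pass edgeR's quasi-likelihood test with Benjamini-Hochberg adjustment over all genes, with a log2 fold change of 0.21 (SE 0.12, adjusted p = 0.327). Farther left lies a group of CXC chemokines. Of these, Pf4, platelet factor 4, had a log2 fold change of -1.14 (SE 0.24, adjusted p = 0.0593). Cxcl3, a neutrophil attractant, had -2.19 (SE 0.58, adjusted p = 0.0841) on means of 2.07 and 0.448 CPM, and Ppbp had -1.02 (SE 0.32, adjusted p = 0.116). Cxcl1, with -0.87, and Cxcl2, with -1.14, varied so much between tumors that their standard errors were 0.8 and 0.85. Cxcl5 had 0.08 (SE 0.66, adjusted p = 0.951 by edgeR). Cxcl15 was too low for the fit, with means of 0.342 CPM in NaCl tumors and 0.515 CPM in H89 tumors. None of the 7 tested neighbours outside the family passed an adjusted p of 0.05 by edgeR, 3 were lower at an unadjusted p under 0.05 (Pf4, Ppbp and Cxcl3; 11.9% of all genes were), and DESeq2 called 2 lower (Pf4 and Cxcl3), as it did 5.68% of all genes.

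**Figure D2:**
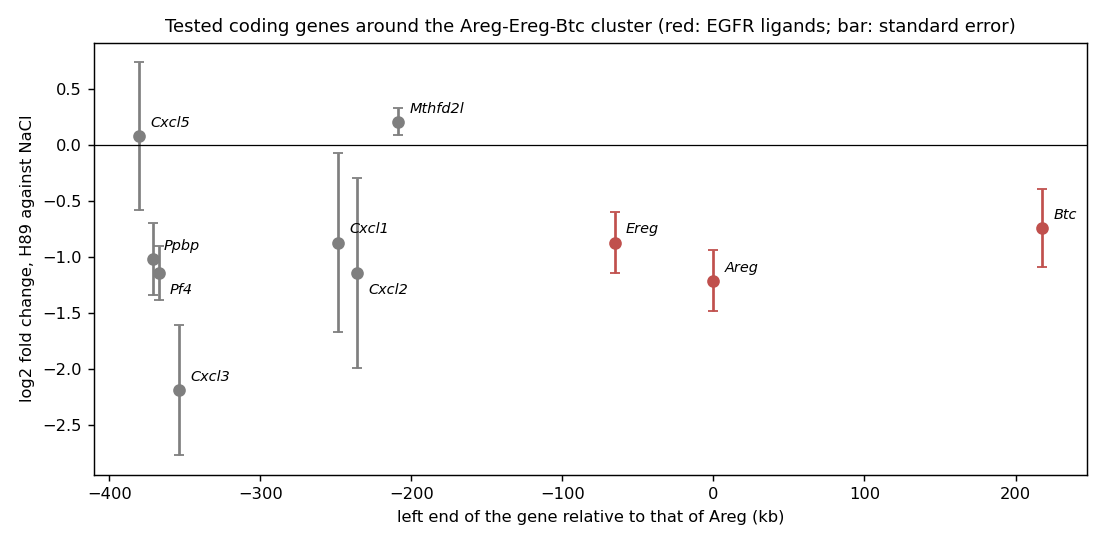
The log2 fold change of H89 against NaCl (vertical axis, bar of 1 standard error) is plotted against the left end of each tested coding gene relative to that of Areg in kb, with EGFR ligands in red and other genes in grey. Ereg, Areg and Btc lay between -1.21 and -0.74, Mthfd2l lay at 0.21, and Cxcl3, Cxcl5, Cxcl1 and Cxcl2 had the widest bars, with standard errors of 0.58 to 0.85.

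The remaining genes of the pathway were taken as 5 lists of 80 genes, of which 77 passed the filter. The lists were drawn up with earlier results of these data known, Dusp5 among them, so their counts are not independent evidence of a direction. At an adjusted p under 0.05, 5 of them were lower in H89 tumors (6.49% of the 77) and 0 were higher, while over all 13118 genes 0.724% were lower and 0.861% were higher (1.59% in either direction). The split over all genes moved with the scaling, from 113 higher and 95 lower to 131 and 33 by plain library totals and to 55 and 25 after quantile normalization, and 2 pathway genes were then lower in both cases. At an unadjusted p under 0.05, 20 were lower (26.0%) and 5 were higher, against 11.9% lower and 13.1% higher over all genes. The median log2 fold change of the 77 was -0.072, beside 0.004 over all genes. By DESeq2, another count model, 12 were lower and 0 higher, against 5.68% lower and 4.75% higher of the 13350 genes it tested.

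The transcriptional targets, genes induced when ERK is active, held 3 of the 5 genes past the adjusted threshold and 9 of the 20 lower at the unadjusted one. Of the 19 tested, 0 were higher at either threshold, and the median log2 fold change was -0.278. On average 14 were lower and 5 higher, namely Fos (0.22), Fosb (0.32), Egr3 (0.04), Etv1 (0.17) and Vegfa (0.13). The groups also overlapped for Egr1 (-0.23), Egr2 (-0.21), Ier3 (-0.2), Phlda1 (-0.43) and Hmga2 (-0.28). All H89 tumors lay below all NaCl tumors for 9 of the 19 (47.4%) by normalized CPM, beside 15.5% of all genes. Of these 9, Junb and Etv5 overlapped by plain library totals. Ier2, an immediate early gene, held 72.0, 69.5 and 75.2 CPM in NaCl tumors and 51.3, 51.2 and 46.4 CPM in H89 tumors. Its groups lay far apart, with a log2 fold change of -0.54 (SE 0.08, adjusted p = 0.0407 by edgeR). Plaur, the urokinase receptor, held 245, 223 and 238 CPM in NaCl tumors and 143, 156 and 172 CPM in H89 tumors, a log2 fold change of -0.58 (SE 0.1, adjusted p = 0.0413 by edgeR). Its promoter held an AP-1 site 69 to 63 bases upstream of the start, as did 5.2% of all promoter windows. Hmga1, a chromatin protein of proliferating cells, fell from 783 ± 80.6 to 488 ± 21.9 CPM (SD, n = 3 each), with a log2 fold change of -0.68 (SE 0.1, adjusted p = 0.0407 by edgeR). Hmga1 is an uncertain measurement: its near-identical copy Hmga1b was listed at a mean of 2640 CPM in NaCl tumors and 1660 CPM in H89 tumors, and the counts of the pair were not whole.

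Negative regulators of the pathway, many of which are themselves induced by ERK, lay on both sides. Of 19 tested, 2 fell at the adjusted threshold (10.5%, beside 0.724% of all genes), and the median log2 fold change rounded to 0. At an unadjusted p under 0.05, 6 were lower (31.6%) and 2 higher, beside 11.9% lower and 13.1% higher over all genes. Dusp5, a phosphatase that inactivates ERK in the nucleus, held 56.9, 61.6 and 75.8 CPM in NaCl tumors and 25.9, 34.5 and 35.8 CPM in H89 tumors. The highest H89 tumor lay well under the lowest NaCl tumor, and the log2 fold change was -1.01 (SE 0.15, adjusted p = 0.0407 by edgeR). Its exons overlap those of AC137853.2 on the opposite strand, and its promoter held a CRE half-site 55 to 51 bases upstream. Such a half-site lay in 20.8% of all promoter windows. Of the other called genes, Hmga1 held one too and Plaur held none, and the promoters of Ier2 and Spry4 were not analysed here. Spry4, a Sprouty protein that restrains RAS signalling, held 237, 233 and 253 CPM in NaCl tumors and 168, 177 and 184 CPM in H89 tumors. Its log2 fold change was -0.45 (SE 0.08, adjusted p = 0.0471 by edgeR). Lrig2 and Ptprj, regulators of receptor turnover and phosphorylation, had log2 fold changes of 0.34 and 0.24 (both with an adjusted p of 0.175 by edgeR).

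**Figure D3:**
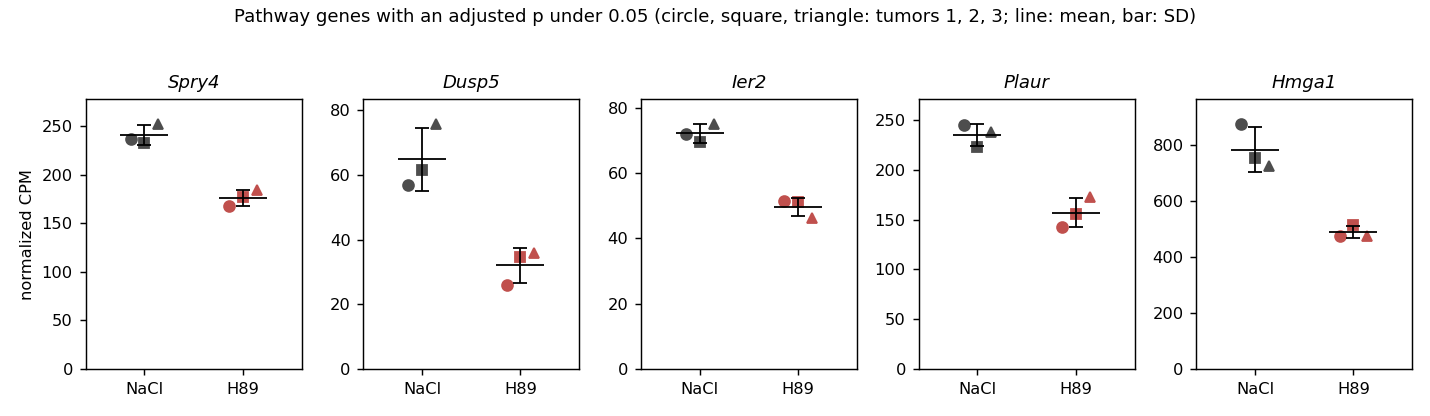
The level of the 5 pathway genes with an adjusted p under 0.05, in normalized CPM on linear axes from 0, is shown with a point per tumor (circle, square and triangle for tumors 1, 2 and 3), a line at the mean and a bar of 1 SD (n = 3). In each panel the 3 H89 tumors lay below the 3 NaCl tumors, with Dusp5 at 25.9 to 35.8 CPM against 56.9 to 75.8 CPM.

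Signal transducers, the adaptors and kinases that carry the signal, held no gene past the adjusted threshold among 27 tested, by edgeR, with a median log2 fold change of -0.077. At an unadjusted p under 0.05, 4 were lower (14.8%) and 2 higher, beside 11.9% lower and 13.1% higher over all genes. Akt2 had -0.31 (adjusted p = 0.0847 by edgeR) and Mapk3, which encodes ERK1, had -0.37 (adjusted p = 0.108 by edgeR). The PI3K subunits Pik3r1 and Pik3cb had 0.26 and 0.3 (adjusted p = 0.107 and 0.149 by edgeR). DESeq2 also called Akt2 (adjusted p = 0.0107) and Mapk3 (adjusted p = 0.0245) lower, as it did 5.68% of all genes. The list of ligand release held 9 genes, with the metalloprotease inhibitor Timp3 among them. Of these, 0 passed the adjusted threshold by edgeR, DESeq2 called 0, and the median was 0.003. At an unadjusted p under 0.05, 1 was lower and 1 higher, beside 11.9% lower and 13.1% higher over all genes. Those were Frmd8, a partner of the inactive rhomboids that escort the shedding protease, at -0.3 (adjusted p = 0.125), and Rhbdl2, a rhomboid protease, at 0.76 (adjusted p = 0.175).

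The neuregulins, ligands of Erbb3, of Erbb4 or of both, did not pass the test, with 0 of 3 tested at an unadjusted p under 0.05 by edgeR and 0 called by DESeq2. Nrg1 had a mean of 23.9 ± 3.38 CPM in NaCl tumors and 25.6 ± 3.93 CPM in H89 tumors (SD, n = 3 each), with a log2 fold change of 0.1 (SE 0.15, adjusted p = 0.714 by edgeR). Nrg2 had -0.07 (adjusted p = 0.867 by edgeR), and Nrg4, at under 1.01 CPM in every tumor, had 0.17 (adjusted p = 0.762 by edgeR). Nrg3 had no count in 4 tumors and at most 3.38 counts, and Erbb4 had 2 counts in NaCl tumor 3 and 0 in the other 5, so the receptor that Hbegf, Btc and Ereg share with the neuregulins was at the limit of these libraries.

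**Figure D4:**
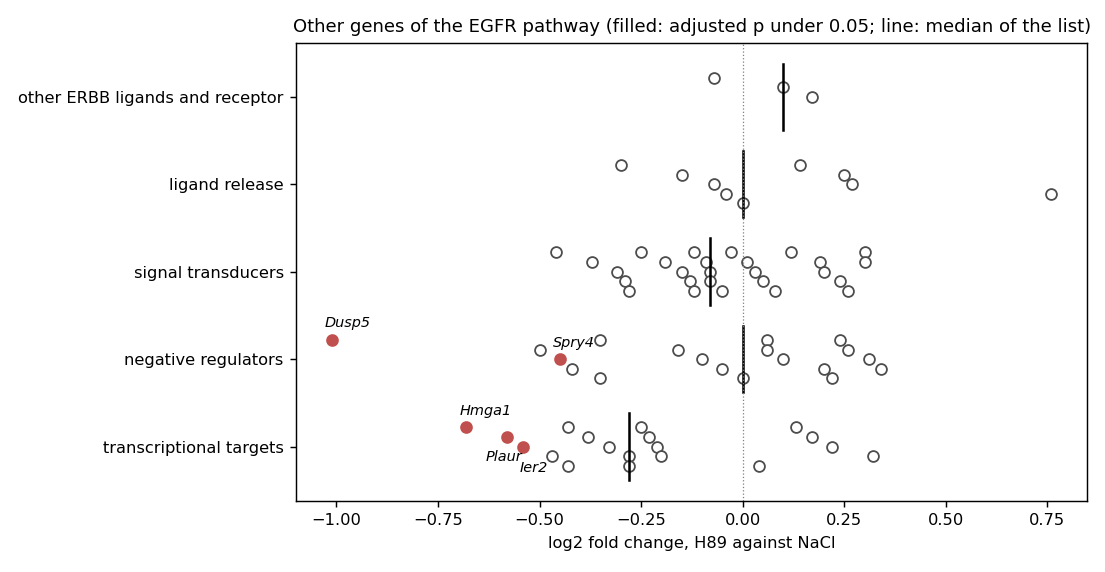
Each point is a tested gene of the pathway other than the family itself, placed by its log2 fold change of H89 against NaCl (horizontal axis) in 1 of 5 lists (rows), filled where the adjusted p was under 0.05, with a black line at the median of the list. The transcriptional targets have their median at -0.28, while the other 4 medians lie between -0.08 and 0.1.

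The calls on these 5 genes rest on all 6 tumors. With any 1 tumor left out, 0 of the 77 pathway genes passed the adjusted threshold by edgeR (15 to 21 were lower at an unadjusted p under 0.05), and the adjusted p of the 5 was between 0.0667 and 0.147, while their log2 fold changes kept their sign.

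Lists of cell-type markers were summed in each tumor to set beside the ligands, and their part in the ligand values was not tested. The summed keratinocyte list was 48.1 to 74.8 CPM in NaCl tumors and 16.0 to 19.8 CPM in H89 tumors, but 87.1% of it was Cdsn, 6 of its 19 genes were at 0 in every tumor, and without Cdsn the groups overlapped (3.62 to 5.19 and 4.96 to 5.65 CPM). Cdsn, corneodesmosin of the outer epidermis, fell from 54.6 ± 13.6 to 12.4 ± 1.98 CPM (SD, n = 3 each), with a log2 fold change of -2.15 (SE 0.2, adjusted p = 0.0288 by edgeR), and it was the one gene of all marker lists past the adjusted threshold. Krt1 was at 0 in all tumors. The simple epithelial list was 116 to 131 and 86.2 to 101 CPM, and without Krt20 it overlapped (21.2 to 32.7 and 19.8 to 25.5 CPM). Krt20 had a log2 fold change of -0.47 (adjusted p = 0.0627 by edgeR) and Krt18 one of -1.04 (adjusted p = 0.0653 by edgeR), both with all H89 tumors below all NaCl tumors. They were the only 2 of the 7 tested genes of this list that were lower on average. The other 5 were higher on average, Krt8 among them with a log2 fold change of 1.03 (SE 0.86). The fibroblast list was 2600 to 2850 and 2930 to 3710 CPM, 53.0% of it Col1a2, without which the groups overlapped (1190 to 1360 and 1330 to 1750 CPM). All 10 genes were higher on average, with 0 past the adjusted threshold by edgeR, 5 past the unadjusted one and 2 called by DESeq2 (Col3a1 and Postn). Over all genes, 13.1% were higher at the unadjusted threshold and 4.75% were called higher by DESeq2. The Schwann cell list was 50.9 to 57.6 and 42.1 to 48.8 CPM, 50.9% of it Pmp22, with 6 of 10 genes under 1 CPM. Without Pmp22 the groups lay apart by a narrow margin, at 24.4 to 27.6 and 20.8 to 24.3 CPM. Only 4 of its genes were tested, of which 2 were lower on average and 2 higher, with 0 past the adjusted threshold by edgeR. The lists of leukocytes known to make Areg overlapped: 117 to 260 and 125 to 171 CPM for mast cells and basophils, and 246 to 320 and 150 to 340 CPM for regulatory T cells and type 2 innate lymphoid cells, of which 92.7% was Il1rl1. Of the 8 tested mast cell and basophil genes, 7 were lower on average and 1 higher. Of the 9 tested genes of the other list, 2 were lower and 7 higher, and without Il1rl1 its groups overlapped as well (9.32 to 25.0 and 19.3 to 24.4 CPM). In both lists 0 passed the adjusted threshold by edgeR. Macrophage, neutrophil, endothelial and proliferation lists overlapped too. The skeletal muscle list stood at 25.0 CPM in H89 tumor 1 and at 3.01 to 4.86 CPM in the other 5 tumors. Without H89 tumor 1, the log2 fold change was -1.18 for Areg, -0.67 for Ereg and -0.57 for Hbegf.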

How the data were processed

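Total RNA of 6 CT26 tumors was sequenced on the BGISEQ-500 platform. The values the authors deposited are estimated counts per gene, scaled neither to the depth of a library nor to the length of a gene: the table is called TPM, but each tumor's values sum to between 27067349 and 31958793, and 58.6 to 61.4% of the values above 0 are whole within 0.01. The submitters' processing notes name kallisto, DESeq2 and GRCm38, and the step from transcripts to genes is not given in the sources used here. Treatment groups came from the sample labels. A record of the table lists 232 gene columns one by one, and the other 23325 were read in the same way.

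Counts were rounded and genes with a mean of at least 0.5 CPM over the 6 tumors (13118) were fitted with edgeR 4.0.16 in R 4.3.3 (TMM, then glmQLFit with glmQLFTest and a single term for treatment), with Benjamini-Hochberg adjustment over all of them and a threshold of 0.05. The standard error was derived from the fold change and its quasi-likelihood F. DESeq2 1.42.0 and limma 3.58.1 served the alternatives. The code was tested on simulated data. Positions, lengths and overlaps are those of GENCODE release 21, where 23007 of the 23557 symbols matched, and promoters are those of RefSeq on GRCm38.p6. Genes were named by rule: the whole family, pathway genes past the adjusted threshold, up to 2 per list and direction past an unadjusted p of 0.05, all neuregulins with Erbb4, the 5 genes most like Areg and Ereg, and neighbours of the cluster. Hmga1b and the single marker genes were picked out after their values were seen. The family and the lists were chosen with earlier results of these data known. Whether same-numbered tumors form pairs was checked over all fitted genes by correlating their deviations from the group means. The correlations were 0.163, 0.061 and -0.025, so no pairing was used.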

Additional observations from a re-analysis of the deposited data

How the results depend on the processing

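The log2 fold change of every fitted family member kept its sign under all alternatives. Leaving out each tumor in turn gave -1.45 to -0.96 for Areg, -1.21 to -0.66 for Ereg, -0.95 to -0.57 for Hbegf, -1.1 to -0.42 for Btc, 0.74 to 1.13 for Egf and 0.26 to 0.58 for Egfr. The log2 ratio of the summed ligands was then -1.05 to -0.59 and that of the summed receptors -0.17 to -0.07. Erbb3 had -0.33 after quantile normalization.

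Over all genes, 113 were higher and 95 lower at an adjusted p under 0.05 by edgeR. Quantile normalization with limma gave 55 and 25, the DESeq2 Wald test gave 634 and 758, the fit without a filter gave 144 and 167, and library totals with no TMM factor, chosen after seeing the data, gave 131 and 33. With each tumor left out in turn, 0 to 11 were higher and 0 to 2 lower. Of the pathway genes, 5 were lower at the adjusted threshold, against 2 with quantile normalization (Dusp5 and Ier2), 12 with DESeq2, 2 with library totals (Ier2 and Hmga1) and 0 with any tumor left out, where each called gene is lost in every case. At an unadjusted p under 0.05, 5 were higher and 20 lower, against 3 higher with DESeq2, and 0 to 10 higher and 15 to 21 lower with a tumor left out. The adjusted p of Spry4 was 0.0524 with a minimum of 5 CPM. The cause of these changes was not tested. No scaling moved the median log2 fold change of all genes outside -0.021 to 0.075.

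The groups share replicate numbers that the labels do not tie to a litter, batch or day. A fit with the replicate block called 0 genes higher and 0 lower over all genes, 0 pathway genes at the adjusted threshold (adjusted p = 0.064 for each of the 5) and, at the unadjusted one, 8 pathway genes higher and 23 lower. Not every tumor correlated best with its own number over all fitted genes. Within the family, the block lowered the standard error of Areg from 0.27 to 0.17, of Ereg from 0.27 to 0.09 and of Hbegf from 0.21 to 0.08. That of Egfr was 0.25 without the block and 0.26 with it. Whether same-numbered tumors shared a batch was not tested.

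Egf, Epgn and Egfr rest on few counts. The counts of Btc, Egfr and Hmga1 were not whole, so they depend in part on how shared reads were divided. Whether the libraries kept the strand is not given in the sources used here, and mixing of reads between genes that overlap on opposite strands was not tested. The counts of Ereg, Tgfa, Egf and Erbb2, which have such partners, were whole in every tumor.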
